A study of Mus musculus with 8 samples.

Results

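The interferon-stimulated genes examined here are 42 genes that interferon is known to induce, chosen by name and read from a table of 56748 genes by their Ensembl identifiers. They were followed in RNA from brains of the TgCRND8 line, mice that make an excess of the amyloid precursor protein (APP) and serve as a model of the amyloid plaques of Alzheimer's disease, and of littermates without the transgene. The design text names forebrain and the labels name brain. Each group had 4 libraries from mice 18 months old, called Tg for the carriers of the transgene and NTg for the non-carriers. Every library carried the value F under the tag batch, and the labels do not say what F stands for, so a batch cannot be checked from it. The labels number the replicates within each genotype but do not state outright that each is a separate animal. The p-values therefore measure the spread between libraries, which may be technical. As background, the TgCRND8 transgene is human APP with the Swedish and Indiana mutations under the hamster prion promoter, which is active mainly in neurons. Effects of the APP protein, of plaques and of the transgene's insertion cannot be told apart between these groups.

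Type I interferons are secreted by cells that sense foreign or misplaced nucleic acid. These interferons bind the receptor made of Ifnar1 and Ifnar2. The kinases Jak1 and Tyk2 then switch on Stat2, which acts with Irf9 in a complex that binds a promoter sequence called the interferon-stimulated response element. The genes so induced encode RNA sensors, antiviral effectors and feedback regulators. In brain tissue with amyloid plaques, microglia are a known site of their expression, and other brain cells can express them too.

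The libraries held 57129090 to 65242741 counts, and 21588 genes, all 42 members among them, were abundant enough to test. Levels are given as CPM, counts scaled by library size after adjustment with TMM factors, which lay between 0.981 and 1.02. Values are listed in the order of replicates 1 to 4. App was at 2532, 2934, 2979.8 and 2958 CPM in Tg libraries and 1623, 1486, 1452 and 1390.3 CPM in NTg libraries (log2 fold change 0.94, SE 0.07, edgeR adjusted p = 0.00146), every Tg value above every NTg value. The gene counted is mouse App, while the transgene is human APP. How reads of the human sequence were counted is not known here, so this fold change is not the size of the APP excess. Markers of neurons summed to 4573 to 5378 CPM in Tg and 5125 to 5518 CPM in NTg libraries. RNA was taken from whole tissue, in which fewer cells of a type and less RNA per cell cannot be told apart.

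The members' promoters were searched for the core of the response element. The core is written GAAANNGAAA, in which N is any base, and it was sought on both strands between 250 bases before and 50 bases after each transcription start in RefSeq promoters of build GRCm38.p6. Of the 42 members, 32 had a promoter in that table, and 16 of the 32 (50%, exact 95% interval 31.9 to 68.1%) held the core, against 1079 of 27025 genes in the table (3.99%). Counted by promoter, 17 of 38 members' promoters (44.7%) and 1131 of 32851 promoters in all (3.44%) held it. With GAAANNNGAAA, which has 3 free bases, the shares were 8 of 32 members (25%) and 856 of 27025 genes (3.17%), and 4 members held both forms. A match is a run of letters, and no match says only that these letters are not in this window. The members were chosen as genes that interferon is known to induce, so the shares describe the list and test nothing. The interval treats the members as independent draws, which genes chosen by name are not. The windows printed here run 5′ to 3′ along the gene's own strand with the core in capitals. Reverse-strand cores appear as TTTC repeats, and positions are counted from the transcription start with a minus sign before it. Bst2 (chr8:71537557-71537632, minus strand), Ifit1 (chr19:34640755-34640843, plus strand) and Ifit3 (chr19:34583343-34583446, plus strand) are shown because at least 1 fit of the counts called them. Their first cores began at -130, -104 and -156. The neighbouring copy Ifit3b (chr19:34607739-34607842, plus strand) held the same letters as Ifit3, beginning at -188. Isg15 (chr4:156200845-156200926, minus strand) is shown for its run of 3 overlapping cores from -78, and Gbp3 (chr3:142559969-142560044, plus strand, from -45) for its level in NTg replicate 1. Stat2 (chr10:128270248-128270315, plus strand, at -222) and Gbp7 (chr3:142530253-142530322, plus strand, at -53) hold a core although their levels differed little between the genotypes.
Bst2: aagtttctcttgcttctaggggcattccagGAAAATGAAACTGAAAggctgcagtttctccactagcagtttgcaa
Ifit1: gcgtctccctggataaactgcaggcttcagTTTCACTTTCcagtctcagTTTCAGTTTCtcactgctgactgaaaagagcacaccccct
Ifit3 and Ifit3b: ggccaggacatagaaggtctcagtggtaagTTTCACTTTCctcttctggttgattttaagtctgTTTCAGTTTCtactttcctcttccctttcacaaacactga
Isg15: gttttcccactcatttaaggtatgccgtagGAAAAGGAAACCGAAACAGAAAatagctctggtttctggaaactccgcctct
Gbp3: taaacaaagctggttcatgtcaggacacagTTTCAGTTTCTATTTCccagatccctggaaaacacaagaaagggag
Stat2: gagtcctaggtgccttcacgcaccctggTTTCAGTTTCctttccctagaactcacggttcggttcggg
Gbp7: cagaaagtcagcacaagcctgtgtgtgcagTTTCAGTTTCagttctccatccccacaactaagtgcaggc

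Taken as a mean over the 42 genes, interferon-stimulated transcripts were more abundant in all 4 Tg libraries than in 3 of the 4 NTg libraries. NTg replicate 1 was the highest of the 8. The score, the mean log2 CPM of the members, was 2.56, 2.53, 2.45 and 2.49 in the Tg libraries, against 2.62, 1.84, 1.86 and 1.98 in the NTg libraries. The Tg libraries lay close together, while NTg replicate 1 stood apart from its own group by far more than the rest of that group varied. The mean score was 2.51 ± 0.05 in Tg and 2.07 ± 0.37 in NTg libraries (SD, n = 4 each), a difference of 0.43. Set against NTg replicates 2 to 4 alone (1.89 ± 0.07, n = 3), the 4 Tg libraries were higher by 0.67, 0.64, 0.55 and 0.60, and NTg replicate 1 by 0.72. Summed over the 42 genes, the level was 393, 384, 365 and 396 CPM in the Tg libraries, against 391, 262, 261 and 275 CPM in the NTg libraries. Each of the 8 role groups had the same arrangement, with the Tg libraries and NTg replicate 1 above the other 3 NTg libraries in the group's mean log2 CPM.

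**Figure D1:**
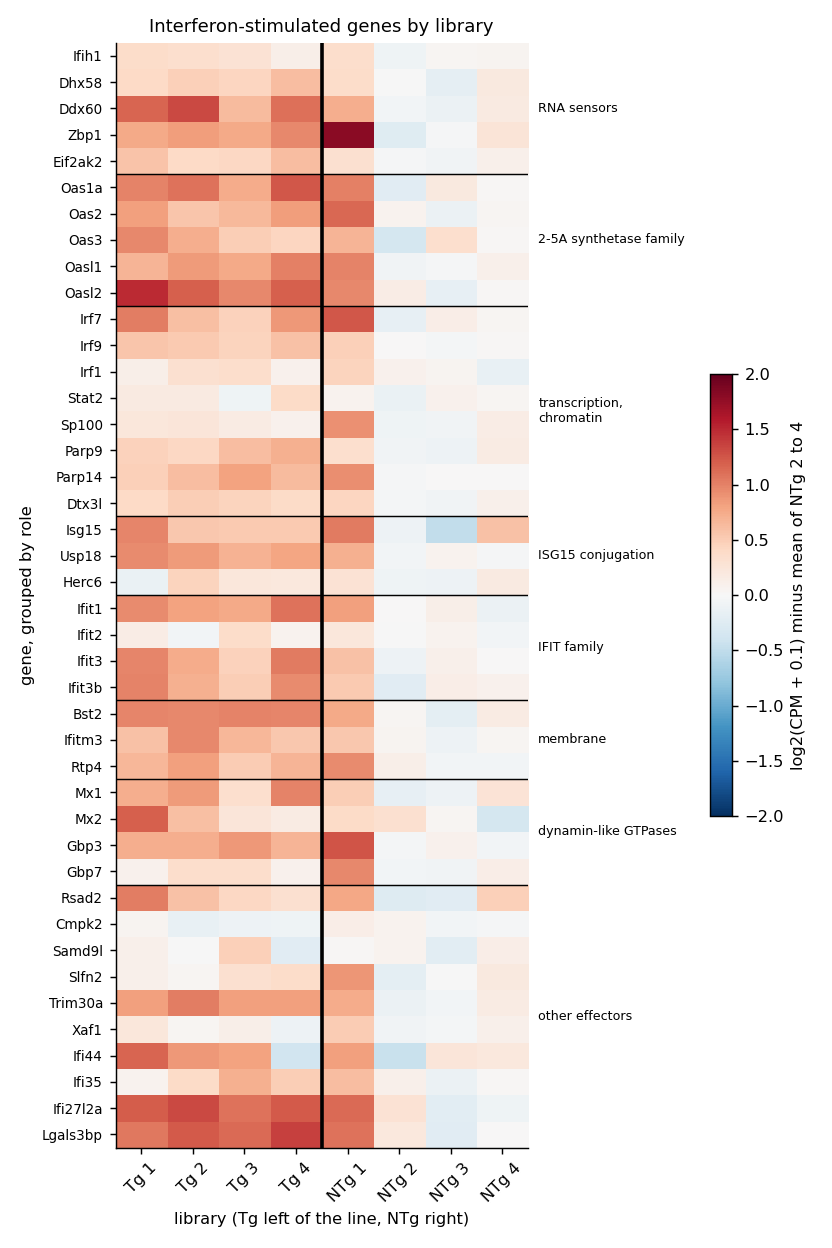
Level of each of the 42 genes (down the page, grouped by role) in each library (across, Tg left and NTg right), as log2(CPM + 0.1) minus the mean of NTg replicates 2 to 4, with red higher and blue lower. The column of NTg replicate 1 is red like the 4 Tg columns for most genes, and darkest for Zbp1, at 1.88 CPM.

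**Figure D2:**
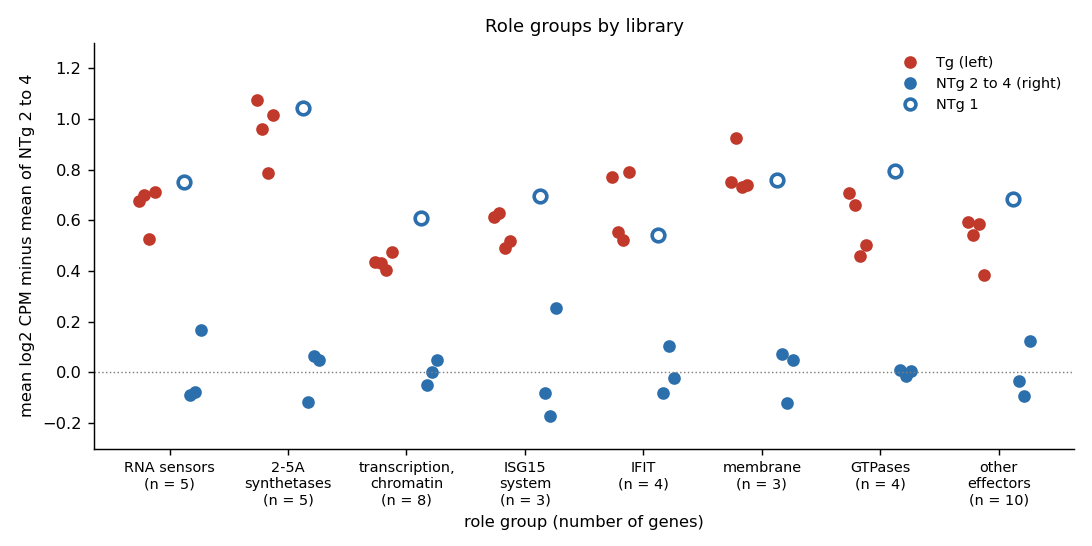
Mean log2 CPM of each role group minus the same mean over NTg replicates 2 to 4 (vertical axis), with 1 point per library, Tg at the left of each pair and NTg at the right. NTg replicate 1 (open circle) lies above the other NTg libraries in all 8 groups. It is within the Tg range for the oligoadenylate synthetases (1.04, with the Tg libraries at 0.79 to 1.07), the IFIT family and the membrane proteins. In each other group it is above every Tg library.

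Gene by gene, the log2 fold change of Tg over NTg was above 0 for 37 of the 42 members and below 0 for 5, with a median of 0.38 (interquartile range 0.16 to 0.64) beside -0.0024 over all 21588 genes tested. The quasi-likelihood test of edgeR, with Benjamini-Hochberg adjustment over all genes, called 0 of the 42 at an adjusted p under 0.05, where it called 0.0139% of all genes (3 genes). The members' adjusted p ran from 0.192 to 0.985. At an unadjusted p under 0.05, 18 members were higher in Tg and 0 lower, where 4.68% of all genes were higher at that threshold. DESeq2 on the same counts called 9 members higher and 0 lower at an adjusted p under 0.05, where it called 1.33% of all genes higher, and limma-voom called 0. The 9 were Ddx60, Eif2ak2, Oasl2, Parp9, Ifit3, Ifit3b, Bst2, Ifitm3 and Trim30a. Every Tg library exceeded every NTg library in 6 members, Dhx58, Eif2ak2, Parp9, Bst2, Ifitm3 and Trim30a, an arrangement that 2.62% of all genes had.

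Among the sensors of foreign RNA and their helpers, all 5 genes had a fold change above 0 and 3 had an unadjusted p under 0.05 (median log2 fold change 0.39). Eif2ak2, the kinase PKR that halts protein synthesis on binding double-stranded RNA and the most abundant of the group per length (2.04 CPM per kb), was at 12.5, 11.1, 11.2 and 13.0 CPM in Tg, against 10.5, 8.29, 7.96 and 8.98 CPM in NTg libraries (log2 fold change 0.42, SE 0.10, edgeR adjusted p = 0.195). The 4 Tg values were all above the 4 NTg values, and NTg replicate 1 was the nearest to them. Ddx60, a helicase tied to antiviral RNA sensing, was at 4.09, 4.55, 2.80 and 3.89 CPM in Tg, against 2.99, 1.70, 1.62 and 2.01 CPM in NTg libraries (log2 fold change 0.88, SE 0.22, edgeR adjusted p = 0.206). Here Tg replicate 3 lay below NTg replicate 1, so the groups overlapped. Dhx58, the regulatory helicase LGP2, was at 2.66, 2.80, 2.70 and 3.12 CPM in Tg, against 2.61, 1.97, 1.74 and 2.29 CPM in NTg libraries (log2 fold change 0.39, SE 0.14), with no overlap and 98 to 182 counts per library. Ifih1, the double-stranded RNA sensor MDA5, averaged 7.28 ± 0.557 CPM in Tg and 6.41 ± 0.889 CPM in NTg libraries (SD, n = 4 each). Its groups overlapped. Zbp1, which senses nucleic acid in the Z form, averaged 0.913 ± 0.0715 CPM in Tg and 0.827 ± 0.708 CPM in NTg libraries. Its NTg mean rested on NTg replicate 1, at 1.88 CPM, where NTg replicates 2 to 4 lay at 0.381 to 0.582 CPM and the Tg libraries at 0.860 to 1.01 CPM.

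The oligoadenylate synthetase family makes or resembles the enzymes that make the short adenylate chains which switch on RNase L. All 5 members had a fold change above 0 and 2 had an unadjusted p under 0.05, with a median log2 fold change of 0.62. Oasl2, the most abundant per length (1.39 CPM per kb), was at 14.0, 11.4, 9.62 and 11.4 CPM in Tg, against 9.71, 5.45, 4.37 and 4.99 CPM in NTg libraries (log2 fold change 0.92, SE 0.23, edgeR adjusted p = 0.219), the highest fold change of the 42 genes. Tg replicate 3, at 9.62 CPM, lay just under NTg replicate 1, at 9.71 CPM, and the other 3 Tg values lay above both. Oas1a was at 3.02, 3.22, 2.53 and 3.60 CPM in Tg, against 3.05, 1.24, 1.71 and 1.4998 CPM in NTg libraries (log2 fold change 0.72, SE 0.26). However, 47.6% of the 75-base windows of its transcript are shared with other genes, chiefly Oas1g, so its reads could have been split. Oas2 averaged 1.501 ± 0.145 CPM in Tg and 1.17 ± 0.598 CPM in NTg libraries. Lower levels were found for Oas3 (0.362 ± 0.0799 CPM in Tg and 0.238 ± 0.101 CPM in NTg libraries) and for the synthetase-like Oasl1 (0.565 ± 0.0660 CPM in Tg and 0.366 ± 0.186 CPM in NTg libraries). In these 3 genes, too, every Tg library lay above NTg replicates 2 to 4 and the groups overlapped only through NTg replicate 1.

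Of 8 genes of transcription and chromatin, 7 had a fold change above 0 and 3 an unadjusted p under 0.05 (median 0.33). Stat2, the most abundant per length (6.27 CPM per kb) and a subunit of the factor that binds the response element, was at 39.4, 39.4, 32.8 and 45.1 CPM in Tg, against 36.3, 31.8, 36.8 and 35.9 CPM in NTg libraries (log2 fold change 0.16, SE 0.09, edgeR adjusted p = 0.803). The lowest Tg library lay below 3 of the 4 NTg libraries. Irf9, the DNA-binding subunit of the same factor, was at 17.3, 16.9, 15.9 and 17.6 CPM in Tg, against 16.3, 11.8, 11.4 and 11.9 CPM in NTg libraries (log2 fold change 0.40, SE 0.11), and Tg replicate 3 alone lay below NTg replicate 1. Parp9, an ADP-ribosyltransferase of the interferon response, was at 5.95, 5.72, 6.64 and 7.12 CPM in Tg, against 5.43, 4.08, 4.00 and 4.83 CPM in NTg libraries (log2 fold change 0.47, SE 0.13), with no overlap. Its ubiquitin ligase partner Dtx3l was at 7.76, 8.25, 7.93 and 7.66 CPM in Tg, against 7.88, 5.67, 5.58 and 6.26 CPM in NTg libraries (log2 fold change 0.32, SE 0.12), where NTg replicate 1 lay among the Tg libraries. The kit did not mark strand, and the opposite-strand exons of Parp9 and Dtx3l overlap over 9.40% and 8.0% of their exon lengths. Another 4 genes of the group were highest in NTg replicate 1. Irf7, the main inducer of type I interferon genes, averaged 4.43 ± 0.786 CPM in Tg and 3.50 ± 1.83 CPM in NTg libraries. Irf1, another factor of the interferon response, averaged 5.63 ± 0.541 CPM in Tg and 5.26 ± 0.955 CPM in NTg libraries. The nuclear body protein Sp100 was at 4.86 ± 0.247 CPM in Tg and 5.24 ± 1.95 CPM in NTg libraries, and the ADP-ribosyltransferase Parp14 at 7.60 ± 0.715 CPM in Tg and 5.98 ± 2.23 CPM in NTg libraries. All 4 had an NTg SD larger than the Tg SD.

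Isg15 is a ubiquitin-like protein attached to others by ligases such as mouse Herc6 and removed by Usp18, which also dampens signalling from the type I receptor. All 3 genes had a fold change above 0 and 1 an unadjusted p under 0.05 (median 0.28). Isg15, the most abundant per length (4.11 CPM per kb), was at 4.27, 3.14, 3.10 and 3.12 CPM in Tg, against 4.51, 1.99, 1.49 and 3.25 CPM in NTg libraries (log2 fold change 0.28, SE 0.30, edgeR adjusted p = 0.929). Tg replicate 1 stood above the other 3 Tg libraries. NTg replicate 1 lay above every Tg library, and NTg replicate 4 lay above Tg replicates 2, 3 and 4. Usp18 was at 3.92, 3.68, 3.27 and 3.50 CPM in Tg, against 3.30, 1.91, 2.10 and 1.96 CPM in NTg libraries (log2 fold change 0.63, SE 0.18), and it overlapped only through NTg replicate 1, which exceeded Tg replicate 3. Herc6 averaged 11.0 ± 1.77 CPM in Tg and 10.1 ± 1.37 CPM in NTg libraries with Tg replicate 1 the lowest of the 8 libraries, and 22.4% of its 75-base windows are shared with the annotated gene Gm45193.

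IFIT proteins bind foreign RNA and block its translation. Of the 4 measured, all had a fold change above 0 and 3 an unadjusted p under 0.05 (median 0.65). Ifit3, the most abundant per length (13.4 CPM per kb), was at 31.8, 26.9, 22.3 and 33.1 CPM in Tg, against 24.1, 14.98, 17.3 and 16.1 CPM in NTg libraries (log2 fold change 0.65, SE 0.16, edgeR adjusted p = 0.214). Ifit3b was at 19.97, 16.5, 14.0 and 19.4 CPM in Tg, against 14.5, 8.56, 10.9 and 10.7 CPM in NTg libraries (log2 fold change 0.65, SE 0.16). In both genes Tg replicate 3 was the lowest Tg library and lay under NTg replicate 1. Since 41.1% of the windows of Ifit3 and 35.7% of those of Ifit3b are shared between them, they are not independent measurements. Ifit1 was at 9.28, 8.42, 8.12 and 10.3 CPM in Tg, against 8.47, 4.78, 5.21 and 4.38 CPM in NTg libraries (log2 fold change 0.66, SE 0.20), with the Tg libraries well above NTg replicates 2 to 4 and on both sides of NTg replicate 1. Ifit2 differed little, at 17.0 ± 2.13 CPM in Tg and 16.0 ± 1.42 CPM in NTg libraries.

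The 3 proteins that act at membranes all had a fold change above 0 (median 0.54), 2 of them with an unadjusted p under 0.05. Ifitm3, which hinders the fusion of viruses with cell membranes, was the most abundant of the 42 genes per length (15.5 CPM per kb), at 11.5, 14.996, 12.1 and 11.2 CPM in Tg, against 11.1, 7.98, 7.14 and 7.85 CPM in NTg libraries (log2 fold change 0.54, SE 0.15, edgeR adjusted p = 0.277). Tg replicate 4 and NTg replicate 1 nearly touched, and no NTg library reached a Tg value. Bst2, the tether that holds budding viruses at the cell surface, was at 8.36, 8.24, 8.48 and 8.32 CPM in Tg, against 7.15, 4.29, 3.64 and 4.71 CPM in NTg libraries (log2 fold change 0.75, SE 0.18, edgeR adjusted p = 0.192). The 4 Tg values of Bst2 lay between 8.24 and 8.48 CPM, above every NTg value, and the adjusted p was the lowest of the 42. Rtp4, a chaperone of receptor transport, averaged 3.87 ± 0.354 CPM in Tg and 2.98 ± 1.17 CPM in NTg libraries and was highest in NTg replicate 1, at 4.72 CPM.

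Of the dynamin-like GTPases, which include the virus-trapping Mx proteins and the guanylate-binding proteins, 3 of 4 had a fold change above 0 and 1 an unadjusted p under 0.05 (median 0.41). Gbp3, the most abundant per length (2.49 CPM per kb), was at 8.87, 8.90, 9.74 and 8.54 CPM in Tg, against 12.9, 5.16, 5.67 and 5.13 CPM in NTg libraries (log2 fold change 0.32, SE 0.28, edgeR adjusted p = 0.907). NTg replicate 1 exceeded every Tg library, while each Tg library exceeded NTg replicates 2 to 4. Gbp7 behaved likewise in NTg replicate 1, at 12.9 CPM, but averaged 7.71 ± 0.809 CPM in Tg and 8.17 ± 3.18 CPM in NTg libraries, and 11.4% of its windows are shared with other genes. Mx1 was at 1.03, 1.13, 0.757 and 1.25 CPM in Tg, against 0.859, 0.508, 0.533 and 0.723 CPM in NTg libraries (log2 fold change 0.67, SE 0.22), from 30 to 73 counts per library, and Tg replicate 3 lay under NTg replicate 1. Mx2 averaged 2.18 ± 0.801 CPM in Tg and 1.54 ± 0.357 CPM in NTg libraries, with Tg replicate 1 the highest of the 8.

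The remaining 10 effectors were mixed, with 7 fold changes above 0, 3 below 0 and 3 genes with an unadjusted p under 0.05 (median 0.31). Lgals3bp, a secreted glycoprotein that binds galectins and the most abundant per length (12.7 CPM per kb), was at 42.2, 47.4, 44.3 and 52.1 CPM in Tg, against 42.8, 23.4, 17.3 and 20.3 CPM in NTg libraries (log2 fold change 0.84, SE 0.24, edgeR adjusted p = 0.317). NTg replicate 1 lay within the Tg range and about level with Tg replicate 1, and the other NTg values were far below. Trim30a, which restrains Toll-like receptor signalling in mice, was at 7.86, 9.06, 7.78 and 7.84 CPM in Tg, against 7.41, 4.05, 4.21 and 4.94 CPM in NTg libraries (log2 fold change 0.66, SE 0.18), without overlap. Ifi27l2a, a small interferon-induced membrane protein, was at 3.38, 3.67, 3.11 and 3.43 CPM in Tg, against 3.22, 1.75, 1.21 and 1.32 CPM in NTg libraries (log2 fold change 0.85, SE 0.28). Tg replicate 3 lay just under NTg replicate 1 and the other Tg values above it. Rsad2, which makes an antiviral ribonucleotide, averaged 4.03 ± 0.965 CPM in Tg and 3.15 ± 1.16 CPM in NTg libraries. Its neighbour in the genome, the mitochondrial nucleotide kinase Cmpk2, averaged 26.4 ± 1.66 CPM in Tg and 28.3 ± 1.69 CPM in NTg libraries. In both genes the Tg and NTg ranges overlapped. Cmpk2 was below 0 in the fit (log2 fold change -0.10, SE 0.06), as were the apoptosis factor Xaf1 (6.50 ± 0.624 CPM in Tg and 6.85 ± 1.35 CPM in NTg libraries) and the schlafen protein Slfn2 (2.69 ± 0.310 CPM in Tg and 2.83 ± 1.04 CPM in NTg libraries). Samd9l, a regulator of protein synthesis, averaged 8.98 ± 1.92 CPM in Tg and 8.41 ± 0.844 CPM in NTg libraries. The interferon-induced proteins Ifi44 (3.49 ± 1.36 CPM in Tg and 2.53 ± 0.919 CPM in NTg libraries) and Ifi35 (3.21 ± 0.595 CPM in Tg and 2.68 ± 0.675 CPM in NTg libraries) overlapped between the genotypes as well. Ifi35 shares 16.8% of its exon length with Gm11626 on the opposite strand.

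**Figure D3:**
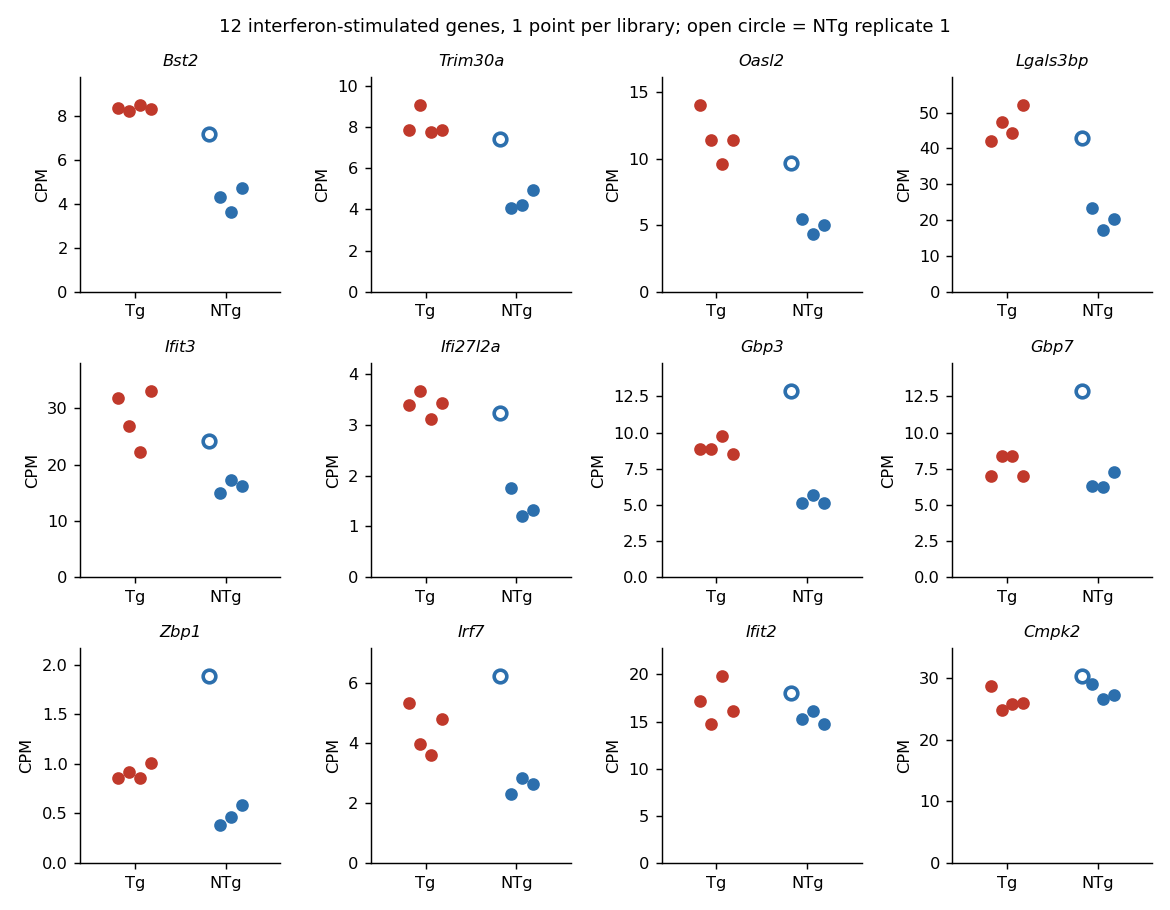
CPM of 12 members (vertical axes, each from 0) in the 4 Tg libraries (left) and 4 NTg libraries (right), with NTg replicate 1 as an open circle. Bst2 and Trim30a separate the genotypes, Oasl2, Lgals3bp, Ifit3 and Ifi27l2a do so except for NTg replicate 1, Gbp3, Gbp7, Zbp1 and Irf7 are highest in NTg replicate 1, and Ifit2 and Cmpk2 overlap.

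NTg replicate 1 was the highest NTg library in 40 of the 42 members, all but Stat2 and Samd9l. Among all genes tested, 25% were highest in it within the NTg group. In the Tg group the highest library was shared out, with 12 members in replicate 1, 9 in replicate 2, 7 in replicate 3 and 14 in replicate 4. The members' median excess of NTg replicate 1 over the mean of the other NTg libraries was 0.75 log2 units, beside -0.0015 over all genes. It exceeded 0.5 log2 units in 29 members, and in 5.52% of all genes. In 13 members (Zbp1, Oas2, Irf7, Irf1, Sp100, Parp14, Isg15, Rtp4, Gbp3, Gbp7, Cmpk2, Slfn2 and Xaf1) NTg replicate 1 was the highest of the 8 libraries, as it was in 11.4% of all genes. It lay within the Tg range in 23 members and below all Tg libraries in 6. The shares of all genes with these placings were not counted, so the counts are not read as a trait of the members. The total of NTg replicate 1, 60436224 counts, lay within the range of the others.

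Leaving out NTg replicate 1 raises the difference by construction, since it is the library with the highest NTg score. Against the remaining 3 NTg libraries, the median log2 fold change of the members was 0.67, and 41 of 42 were above 0, Cmpk2 being the exception. EdgeR then called 8 members, all higher in Tg, where it called 0.0685% of all genes higher. They were Oasl2, Irf9, Ifit1, Bst2, Gbp3, Trim30a, Ifi27l2a and Lgals3bp, with log2 fold changes of 0.53 to 1.25 and adjusted p of 0.0142 to 0.0428, and over all settings tried their adjusted p ran from 2.06e-20 to 1.00. At an unadjusted p under 0.05, 30 members were higher, against 4.92% of all genes. The fold change of Lgals3bp was 1.19 (SE 0.11) in this fit, that of Gbp3 0.76 (SE 0.09) and that of Ifi27l2a 1.25 (SE 0.16). DESeq2 without the same library, an alternative chosen after seeing the data, called 21 members higher, where it called 1.5% of all genes higher. Oasl2, Bst2 and Trim30a were the 3 members called both by edgeR without NTg replicate 1 and by DESeq2 on all 8 libraries. Every Tg library lay above NTg replicates 2 to 4 in 28 of 42 members, and in 4.78% of all genes. The 14 without that arrangement were Stat2, Sp100, Isg15, Herc6, Ifit2, Mx2, Gbp7, Rsad2, Cmpk2, Samd9l, Slfn2, Xaf1, Ifi44 and Ifi35. With any other single library left out, edgeR called 0 members.

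**Figure D4:**
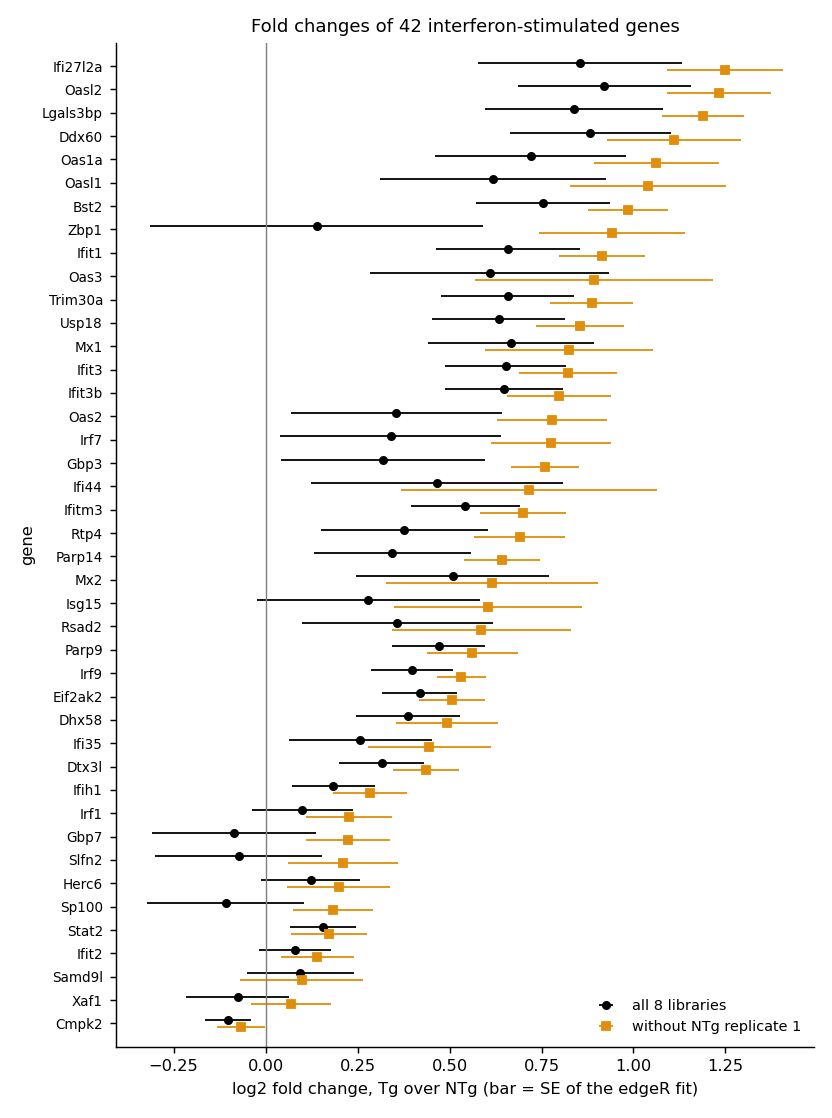
Log2 fold change of Tg over NTg (horizontal axis) for each member, with all 8 libraries (black circles) and without NTg replicate 1 (orange squares), bars showing the SE derived from the edgeR test. The median is 0.38 with all libraries and 0.67 without NTg replicate 1, and the genes near 0 in both fits include Cmpk2, Xaf1, Samd9l and Ifit2.

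Markers of several cell types were read beside the score. The 9 microglial markers summed to 421, 689, 675 and 686 CPM in the Tg libraries, against 398, 331, 353 and 308 CPM in the NTg libraries. All 9 had an unadjusted edgeR p under 0.05, higher in Tg, where 4.68% of all genes were higher at that threshold. The microglial sum of Tg replicate 1 was the lowest of its group. The 3 markers of reactive astrocytes summed to 745, 2293, 1811 and 2411 CPM in the Tg libraries, against 568, 576, 483 and 529 CPM in the NTg libraries. NTg replicate 1 lay within the range of the other NTg libraries for reactive astrocytes and above it for microglia. The 2 B cell markers Cd79a and Ms4a1 summed to 0.709, 0.460, 0.705 and 0.429 CPM in the Tg libraries, against 5.35, 0.365, 0.711 and 0.176 CPM in the NTg libraries, with NTg replicate 1 the highest of the 8. Neither gene was at 0 in any library. Immunoglobulin genes looked up after this was seen were also highest there, with Ighm at 21.2, 25.2, 35.9 and 24.2 CPM in Tg, against 53.6, 23.7, 19.1 and 12.9 CPM in NTg libraries. Igkc, the kappa light chain, was at 3.32, 3.73, 1.96 and 0.377 CPM in Tg, against 14.3, 3.03, 2.72 and 2.19 CPM in NTg libraries. NTg replicate 1 was the highest of the 8 libraries in both genes. The other B lineage genes looked up with them were Cd79b and Jchain, also highest there, and Cd22, which was not: it was at 0.966, 2.57, 2.12 and 2.49 CPM in Tg, against 1.80, 0.842, 0.871 and 0.723 CPM in NTg libraries. The 6 T cell markers summed to 5.41 to 8.57 CPM in Tg libraries and to 6.39 CPM in NTg replicate 1, where the other NTg libraries lay at 7.78 to 10.8 CPM. The 5 endothelial markers summed to 105 to 147 CPM in Tg and 140 to 181 CPM in NTg libraries, highest in NTg replicate 1. All 5 had a fold change below 0, and Pecam1, Flt1 and Cdh5 had an unadjusted edgeR p under 0.05, lower in Tg. The 5 choroid plexus markers summed to 306 to 568 CPM in Tg and 598 to 909 CPM in NTg libraries, and all 5 were lower in Tg at that threshold. The share of all genes lower in Tg at that threshold is not given here. The 5 oligodendrocyte markers summed to 5601 to 6910 CPM in Tg libraries, against 8007 CPM in NTg replicate 1 and 6494 to 7087 CPM in the other NTg libraries. In each of these 5 genes NTg replicate 1 was above every Tg library. Markers of monocytes and neutrophils summed to 12.8 to 20.3 CPM in Tg libraries, against 21.2 CPM in NTg replicate 1 and 10.5 to 18.2 CPM in the other NTg libraries. Border macrophage markers summed to 5.30 to 10.2 CPM in Tg libraries, against 6.24 CPM in NTg replicate 1, the lowest of its group, and 9.06 to 9.19 CPM in the other NTg libraries. Red blood cell markers summed to 448 to 3003 CPM in Tg and 1282 to 3271 CPM in NTg libraries, with Tg replicate 1 far above the other Tg libraries. The part of these cells in the interferon-stimulated levels was not tested.

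**Figure D5:**
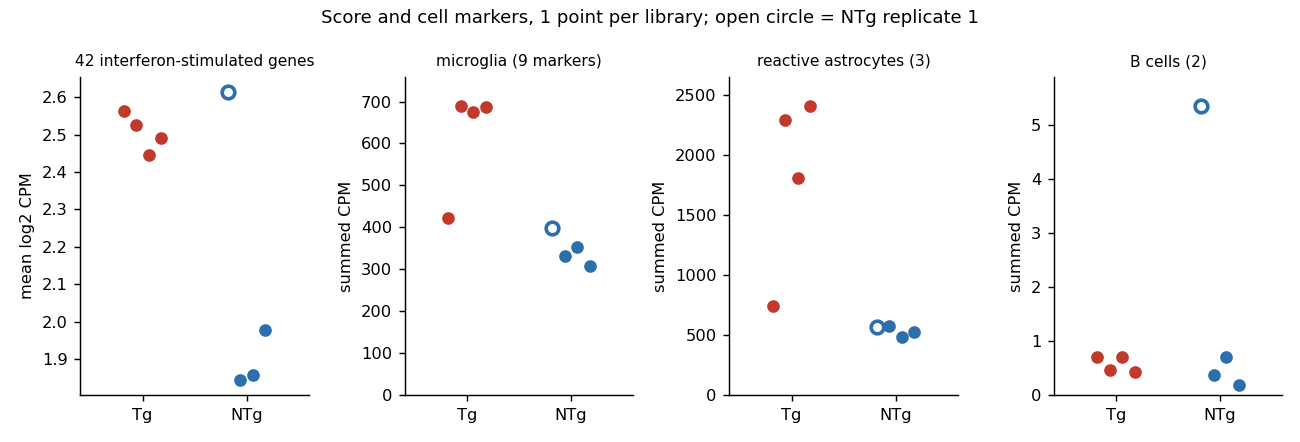
Mean log2 CPM of the 42 genes and summed CPM of microglial, reactive astrocyte and B cell markers (vertical axes), 1 point per library, with Tg left and NTg right of each panel and NTg replicate 1 as an open circle. NTg replicate 1 stands apart in the score (2.62) and in the B cell markers (5.35 CPM), and Tg replicate 1 is the low Tg library in the microglial and astrocyte panels.

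The genes around the members in the pathway were read from the same fits. The 10 interferon ligands listed were all under the filter, with 7 counts in total over all libraries. Of these ligands 7 (Ifnb1, 4 Ifna genes, Ifnl2 and Ifnl3) had 0 counts everywhere, and the counts seen belonged to Ifne, Ifnk and Ifng. These are too few to compare between the genotypes at this depth. Of 10 receptor and signalling genes, 7 had a fold change above 0 and 3 below 0, with a median of 0.090. At an unadjusted edgeR p under 0.05, 2 were higher in Tg, Ifnar2 and Ifngr1, where 4.68% of all genes were higher. The log2 fold change of the receptor gene Ifngr1 was 0.23 (SE 0.07). EdgeR, DESeq2 and limma-voom called 0 of the 10, where edgeR called 0.0139% of all genes and DESeq2 called 1.33% higher. The receptor subunit Ifnar1 was at 46.4, 37.3, 38.1 and 37.6 CPM in Tg, against 47.9, 44.5, 41.8 and 43.1 CPM in NTg libraries (log2 fold change -0.15, SE 0.08). Its partner Ifnar2 was at 13.2, 13.3, 13.0 and 13.6 CPM in Tg, against 13.2, 10.8, 11.4 and 11.8 CPM in NTg libraries (log2 fold change 0.17, SE 0.07). In Ifnar2, NTg replicate 1 lay within the Tg range. Of 18 genes listed under nucleic acid sensing, 17 were tested and Trex1 was listed at 0. In this list 16 fold changes were above 0 and 1 below, with a median of 0.23, and 6 genes had an unadjusted p under 0.05, higher in Tg. Of all genes tested, 4.68% were higher at that threshold. Tlr7, an endosomal sensor of single-stranded RNA, was at 5.09, 8.24, 9.65 and 9.17 CPM in Tg, against 4.16, 3.67, 4.10 and 3.74 CPM in NTg libraries (log2 fold change 1.03, SE 0.18, edgeR adjusted p = 0.107). All Tg values lay above all NTg values, and NTg replicate 1 was not set apart in this gene. EdgeR called it without Tg replicate 1 or with no filter on low counts, and DESeq2 called it on all 8 libraries.

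A further 15 interferon-induced genes, which include chemokines, immunity-related GTPases and antigen presentation genes, had a median log2 fold change of 0.35, with 11 above 0 and 4 below. Only Cxcl10, a chemokine that attracts T cells, was called by edgeR in the unpaired fit of all 8 libraries, at 3.00, 3.90, 4.25 and 5.74 CPM in Tg, against 0.661, 0.429, 0.462 and 0.388 CPM in NTg libraries (log2 fold change 3.11, SE 0.24, edgeR adjusted p = 0.00146). The lowest Tg value of Cxcl10 was far above its highest NTg value, which was NTg replicate 1. NTg replicate 1 was the highest NTg library in all 15 genes, as in 25% of all genes tested, by a median of 1.05 log2 units. It was the highest of all 8 libraries in 10 of them, as in 11.4% of all genes. Irgm2, a GTPase of cell-autonomous defence, was at 5.21, 5.31, 5.47 and 5.09 CPM in Tg, against 10.6, 4.08, 3.91 and 3.49 CPM in NTg libraries (log2 fold change -0.07, SE 0.32). Gbp2, a guanylate-binding protein, was at 7.29, 7.27, 7.18 and 6.74 CPM in Tg, against 11.0, 4.75, 4.09 and 4.94 CPM in NTg libraries (log2 fold change 0.20, SE 0.28). In both, NTg replicate 1 exceeded every Tg library by a wide margin. B2m, which pairs with the heavy chains of class I antigen-presenting molecules, had 164, 193, 202 and 169 CPM in Tg, against 180.4, 91.6, 94.7 and 107 CPM in NTg libraries (log2 fold change 0.62, SE 0.20, edgeR adjusted p = 0.386). EdgeR called it without NTg replicate 1 (0.90 on the log2 scale). Over all 42 pathway genes tested, edgeR called 1, where it called 0.0139% of all genes. DESeq2 called 2, where it called 1.33% of all genes higher. EdgeR called 2 without NTg replicate 1 (Cxcl10 and B2m) and also 2 without Tg replicate 1 (Cxcl10 and Tlr7).

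Read against the promoters, the 16 members with the core had a median log2 fold change of 0.58, from -0.09 to 0.88, with 9 at an unadjusted p under 0.05. The 16 members whose promoters lacked it had a median of 0.19, from -0.11 to 0.92, with 4 at that threshold. The 10 members without a promoter in the table had a median of 0.43, with 5. Oasl2 and Lgals3bp, among the highest fold changes, had no core in the window, and Gbp7, with a core, was at -0.09. The median excess of NTg replicate 1 over NTg replicates 2 to 4 was 0.76 log2 units in members with the core and 0.57 in those without. These groups were compared as a description and the difference between them was not tested.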

How the data were processed

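Polyadenylated RNA was sequenced in 8 libraries, 4 Tg and 4 NTg, as paired-end 75-base reads from a kit that does not mark strand, per the labels' protocols. The authors deposited raw counts per Ensembl gene. The submitters' processing notes name STAR, DESeq2 and the build GRCm39 without versions, and the counting annotation is not given in the sources used here. Symbols were matched for 52073 of 56748 genes (99.58% of counts).

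Counts were fitted with edgeR 4.0.16 (R 4.3.3) by the quasi-likelihood test after TMM scaling and filterByExpr (minimum count 10), over all genes, with Benjamini-Hochberg adjustment at 0.05. The SE given with an edgeR fold change was derived as its absolute value over the square root of the F statistic. Log2 CPM used a prior count of 2. DESeq2 1.42.0, limma 3.58.1, other scalings, filters, a replicate block and leaving out each library were alternatives. Libraries of a group were never alike within sampling noise (chi-square per degree of freedom 11.1 or more). Same-numbered libraries of the genotypes did not deviate together (r from -0.032 to 0.155), so the fits are unpaired. Shared 75-base windows, exon lengths and overlaps come from the GENCODE M21 annotation (GRCm38), whose coordinates are not printed here.

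The members, pathway lists and tests were chosen with earlier results of these data known, so no set test, score p or list-only adjustment was made. Every member is named. Values per library are given for each member with an unadjusted edgeR p under 0.05 and for the most abundant of each role group, and beside them App, Cxcl10 and pathway genes chosen as examples after their values were seen. A pathway gene and a B cell marker of the lists are not reported here.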

Additional observations from a re-analysis of the deposited data

Results flagged for a closer look

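Members and tested pathway genes, with the score, make 170 groups of 4 libraries, and in 26 of them the highest or lowest library lay apart from the other 3 by more than Dixon's 95% limit for the gap over the group's range. Chance flags about 1 in 20 such groups, or 5%, and genes of one library are not independent of each other. Of the 26, 20 were NTg replicate 1, each time as the highest library. The members among them were Zbp1 (1.88 CPM in NTg replicate 1), Oas2 (2.06 CPM), Oasl1 (0.644 CPM), Irf7 (6.23 CPM), Irf9 (16.3 CPM), Parp14 (9.33 CPM), Usp18 (3.30 CPM), Rtp4 (4.72 CPM), Gbp3 (12.9 CPM) and Gbp7 (12.9 CPM). The pathway genes set apart in the same library were Samhd1 (21.9 CPM), Gbp2 (11.0 CPM), Igtp (11.1 CPM), Irgm1 (18.0 CPM), Irgm2 (10.6 CPM), Iigp1 (7.17 CPM), Psmb8 (5.17 CPM), Tap1 (8.64 CPM), B2m (180 CPM) and H2-K1 (88.1 CPM).

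In the Tg group, Tg replicate 1 stood highest for Isg15 (4.27 CPM), Ifnar1 (46.4 CPM) and Iigp1 (4.36 CPM) and lowest for Tlr9 (1.75 CPM), and Tg replicate 2 stood highest for Trim30a (9.06 CPM). NTg replicate 4 was lowest for Adar (112 CPM). The score itself was not set apart by this measure in either group.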

How the results depend on the processing

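No member passed edgeR's adjusted threshold in the fit of all 8 libraries, and 0 passed under limma-voom, the other scalings, filters and dispersion setting, or without any library but NTg replicate 1. Without single libraries the count called ran from 0 to 8, the 8 without NTg replicate 1, that at an unadjusted p under 0.05 from 15 to 30, and the median log2 fold change from 0.28 to 0.67, each highest without NTg replicate 1. The cause of that library's distance was not tested. DESeq2 called 9 members on all 8 libraries. Without NTg replicate 1, an alternative chosen after seeing the data, it called 21, with 31 at an unadjusted p under 0.05 and a median of 0.66. Pathway genes called numbered 1 in the fit of all 8 libraries, 2 under DESeq2, 2 with no filter on low counts, 1 to 2 without single libraries (2 without Tg replicate 1 and 2 without NTg replicate 1) and 11 under DESeq2 without NTg replicate 1. With the replicate number as a block, although the numbers do not pair the libraries, edgeR called 0 members (19 at an unadjusted p under 0.05, median 0.44) and 0 pathway genes. The pathway call lost there was Cxcl10 (log2 fold change 3.09, edgeR adjusted p = 0.0775), which was called under each other alternative, with an adjusted p of 2.6e-28 to 0.0174. The promoter share of 50% was 25% with 3 free bases. The score difference of 0.43 ran from 0.36 to 0.61 over all alternatives, 0.61 without NTg replicate 1, and has no value of its own under DESeq2, limma-voom, robust dispersion or the block. A mean of at least 1 CPM kept 38 members.

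The fold changes of 7 members, none of them called, changed sign. Without NTg replicate 1 Sp100 was at 0.18, Gbp7 0.22, Slfn2 0.21 and Xaf1 0.068, and DESeq2 without it gave 0.18, 0.22, 0.21 and 0.067. Zbp1 was at -0.10 without NTg replicate 2 and -0.06 without NTg replicate 3, and without Tg replicate 3 Ifit2 was at -0.0023 and Samd9l at -0.054. Over all single libraries left out, the range was -0.10 to 0.94 for Zbp1, -0.22 to 0.18 for Sp100, -0.0023 to 0.14 for Ifit2, -0.20 to 0.22 for Gbp7, -0.054 to 0.19 for Samd9l, -0.21 to 0.21 for Slfn2 and -0.14 to 0.068 for Xaf1. With 4 libraries a group and 8 counts in the lowest library of the scarcest member, small differences in scarce genes such as Oas3 are not resolved.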
